A study of Mus musculus with 33 samples.

Results

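Deoxyribonucleases cut DNA, and 4 of them were followed in the kidneys of lupus-prone mice: Dnase1, Dnase1l3, Dnase2a and Endog. Every probe set paired with 1 of these symbols alone was taken, which gave 5 of the 45037 probe sets tested and 4 of the 17097 genes named, and the probe set with the highest mean over the 33 arrays stood for its gene. The genes were chosen from a group of nucleases after the late fall of Dnase1 on these same arrays was known, so the late values of Dnase1 are given as a description with no test. The other 3 genes were tested in a fit over all probe sets, and no result here is independent of that earlier look.

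DNase I, the product of Dnase1, is a secreted endonuclease that digests free DNA outside cells and is a major nuclease of the kidney and urine. It binds monomeric actin, which inhibits it. Dnase1l3 encodes a secreted relative made mainly by macrophages and dendritic cells that digests chromatin in particles shed from dying cells. DNase II, from Dnase2a, works in the acid interior of lysosomes on the DNA of engulfed cells. Endonuclease G, from Endog, sits in mitochondria and can move to the nucleus during cell death. Loss of DNase I or of DNASE1L3 is linked to lupus, a disease in which antibodies form against DNA and chromatin.

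The animals were female BWF1 mice, F1 offspring of NZB X NZW parents, which develop lupus nephritis spontaneously, and each of the 33 whole kidneys gave 1 Affymetrix array. An untreated group held 3 mice. The 30 treated mice received an adenovirus expressing interferon-alpha (Adv-IFNα, written ADV_IFNa in the labels), which speeds up the disease, and were collected in groups of 5 at weeks 1, 2, 3, 5, 7 and 9. Untreated mice were described as matched in age, but the labels give no age and no empty-virus group, so effects of virus, interferon and age cannot be told apart. Values are on the log2 scale of RMA (robust multi-array average), on which a difference of 1 is a doubling of intensity. All weeks were compared with the same 3 untreated arrays.

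The array medians ran from 3.97 to 4.10 on the log2 scale. RMA brings the arrays to the same distribution, so these medians do not show whether the kidneys were alike. Of 6 kidney markers looked up, 4 were bright in every kidney: Umod, which encodes uromodulin (10.76 to 11.33 on the log2 scale), Slc12a1 of the loop of Henle (10.28 to 10.95), and Kap (11.85 to 12.64) and Cubn (10.33 to 11.58) of the proximal tubule. The other 2, Aqp2 of the collecting duct (at most 5.22) and Nphs1 of podocytes (from 3.61), were dim, nearer to the median of probe set means, 4.04. The log2 difference between the 3′ and 5′ probe sets of beta-actin, a sign of RNA quality, was 1.57 ± 0.16 (SD, n = 3) in untreated and 1.95 ± 0.11 (n = 30) in treated kidneys. Week 7 replicate 4 and week 9 replicates 2 and 3 stood apart from the other late kidneys in several transcripts, as shown with each kidney's values. Signal of different probe sets depends on the probes, so levels were not compared between genes.

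Promoter sequence was available for 3 of the 4 genes in the RefSeq table of mouse build GRCm38.p6, and not for Dnase1l3. The stretches before Dnase1 and Endog are shown because these are the 2 genes with lower late values. Each is on the plus strand, written 5′ to 3′, and ends at the base before the first annotated base of the gene. Capitals mark GTTAAT or its reverse complement ATTAAC, the core of the sequence read by the kidney and liver factor HNF1.
Dnase1, chr16:4036786-4036957: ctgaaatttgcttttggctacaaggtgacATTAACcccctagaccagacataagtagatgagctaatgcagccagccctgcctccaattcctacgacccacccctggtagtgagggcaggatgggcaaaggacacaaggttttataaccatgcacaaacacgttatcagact
Endog, chr2:30171274-30171407: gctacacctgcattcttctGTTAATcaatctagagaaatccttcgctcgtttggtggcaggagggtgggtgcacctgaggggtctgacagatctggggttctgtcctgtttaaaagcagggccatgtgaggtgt
On either strand, this core occurred in 6.43% of the 32851 promoters of the table over the 250 bases before the start. In that window it was found for Endog and for the first of the 2 annotated starts of Dnase1, but not for Dnase2a. Those windows of Dnase1 and Endog begin at the same base as the printed stretch. They run further than it, past the first annotated base of the gene. The core of the interferon-stimulated response element, searched as GAAANNGAA on both strands, occurred in 7.13% of the promoters and in none of those of Dnase1, Dnase2a or Endog. The gamma-activated site, TTCNNNGAA, which reads the same on both strands, occurred in 7.02% and likewise in none of the 3. These matches describe letters in a window and do not show that a factor binds there.

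Dnase1 had group means slightly below the untreated mean through week 5 and was much lower in most kidneys at weeks 7 and 9. The untreated kidneys had Dnase1 at 11.67, 11.90 and 11.49 on the log2 scale, a mean of 11.69 ± 0.2 (SD, n = 3). At week 1 the 5 kidneys had 11.34, 11.49, 11.34, 11.42 and 11.50, and at week 2 they had 11.65, 11.60, 11.34, 11.68 and 11.60. At week 1, 4 of 5 kidneys lay below the lowest untreated kidney, and at week 2, 1 of 5 did. Week 3 gave 11.43, 11.18, 11.15, 11.22 and 11.28. Week 5 gave 10.73, 11.30, 11.03, 11.49 and 11.13. All 5 kidneys of week 3 lay below every untreated kidney, as did 4 of 5 at week 5. At week 5, 3 of 5 kidneys also lay below the lowest kidney of weeks 1 to 3.

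The differences of Dnase1 from untreated at these 4 weeks were small beside those that came later. They were -0.27 at week 1, -0.11 at week 2, -0.43 at week 3 and -0.55 at week 5 on the log2 scale, with limma adjusted p of 0.911, 0.963, 0.841 and 0.746. The model uses 1 spread per probe set over all weeks, so the standard error was 0.69 at each week, whereas the SD of the 5 kidneys was 0.078 at week 1 and at most 0.29 through week 5. An exact permutation test of these kidneys alone, two-sided and unadjusted, gave p = 0.0357 at week 3, the smallest p that 3 against 5 allows, and p = 0.0714 at weeks 1 and 5. None of the 4 genes was called, that is, had an adjusted p below 0.05, at weeks 1, 2, 3 or 5, when 1.43%, 1.33%, 1.38% and 2.96% of all probe sets were called in either direction.

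At week 7 the 5 kidneys had Dnase1 at 6.53, 6.11, 7.76, 11.24 and 7.33 on the log2 scale, a mean of 7.79 ± 2.0 (SD, n = 5). At week 9 they had 8.39, 11.39, 10.29, 7.70 and 7.31, a mean of 9.02 ± 1.8 (SD, n = 5). All 10 late kidneys lay below the lowest untreated kidney, and 8 of 10 lay below the lowest of the 15 kidneys of weeks 1 to 3, which ranged from 11.15 to 11.68. Week 7 replicate 4 and week 9 replicate 2 lay inside that early range.

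The mean difference of Dnase1 from untreated was -3.89 (SE 0.69) at week 7, a 14.9-fold lower level. At week 9 it was -2.67 (SE 0.69), a 6.36-fold lower level. These SEs rest on the 1 spread over all weeks. With only the groups compared in the fit, the SE was 0.86 at week 7 and 0.74 at week 9. Of all 45037 probe sets only 2 had a more negative difference at week 7 and 3 at week 9. Among the 85 probe sets with an untreated mean at or above that of Dnase1, it was the 1 with the most negative difference at week 7. Dnase1 was chosen for its late fall, so these ranks describe that fall and are no separate result. Without week 7 replicate 4, the week 7 difference was -4.75. Dnase1 was also taken as a share of the untreated geometric mean, which is the mean log2 value put back on the linear scale. This share was 2.8%, 2.1%, 6.59%, 73.3% and 4.87% in the kidneys of week 7. In those of week 9 it was 10.2%, 81.3%, 38%, 6.31% and 4.82%.

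The late mean of Dnase1, taken over weeks 7 and 9, was 3.01 (SE 0.39) below that of weeks 1 to 3 on the log2 scale, or 8.05-fold. Week 9 was 1.22 (SE 0.6) above week 7, and 2.08 above it without week 7 replicate 4. Only 0.0688% of probe sets were called between those weeks, and none of the other 3 genes was. By mean level the order of the groups for Dnase1 was untreated, week 2, week 1, week 3, week 5, week 9 and week 7, and the ranges of neighbours in this order overlapped throughout. In whole kidney RNA, fewer cells of a type and less RNA per cell cannot be told apart.

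**Figure D1:**
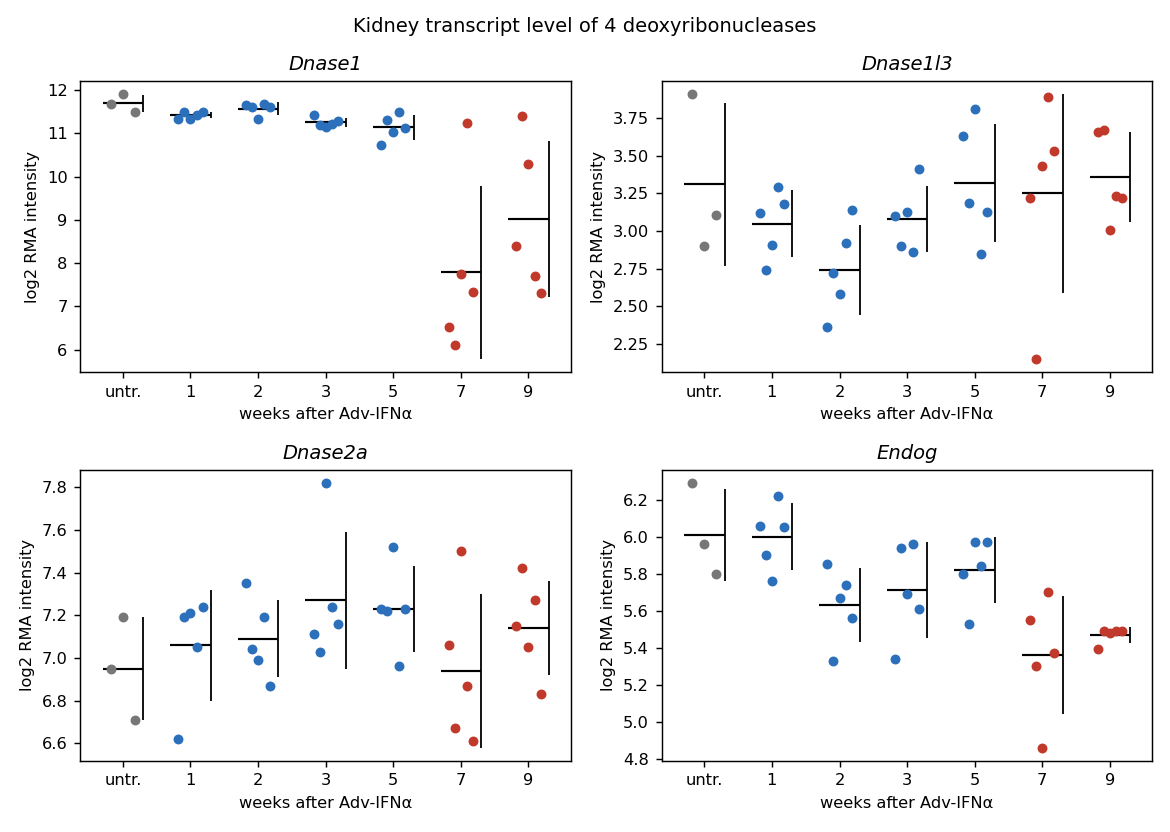
Log2 RMA intensity of the 4 genes in each kidney (points) by group, with the group mean as a horizontal line and 1 SD to each side as a vertical line beside it (untreated n = 3, each week n = 5); the axes of the panels differ. Dnase1 lies at or above 10.73 in every kidney until week 5 and between 6.11 and 11.39 at weeks 7 and 9, and all late Endog values lie below the lowest untreated value of 5.80.

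Endog was the other gene with lower late levels, by a smaller amount. The untreated kidneys had Endog at 6.29, 5.96 and 5.80 on the log2 scale. Week 7 gave 5.55, 5.30, 4.86, 5.70 and 5.37, and week 9 gave 5.39, 5.49, 5.48, 5.49 and 5.49. All 10 late kidneys lay below the lowest untreated kidney. These included the 3 kidneys with the highest late Dnase1, where Endog was 5.70, 5.49 and 5.48.

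Endog fell by 0.66 on the log2 scale at week 7 (SE 0.16, limma adjusted p = 0.00356), or 1.58-fold, and by 0.55 at week 9 (SE 0.16, limma adjusted p = 0.0176), or 1.46-fold. Lower calls made up 5.82% of probe sets at week 7 and 7.53% at week 9, so a fall of this kind was not rare among all probe sets, and the 2 genes with lower values among 4 cannot be read against that share because Dnase1 was chosen for it. With the beta-actin difference as a covariate, the fall of Endog was 0.53 at week 7 (limma adjusted p = 0.127) and 0.41 at week 9 (limma adjusted p = 0.348), neither past the threshold. Without untreated replicate 1, which had the highest untreated Endog, the week 9 fall was 0.41 (limma adjusted p = 0.139).

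The early weeks of Endog were nearer to untreated. Week 1 ran from 5.76 to 6.22, week 2 from 5.33 to 5.85, week 3 from 5.34 to 5.96 and week 5 from 5.53 to 5.97 on the log2 scale. The differences from untreated were -0.02, -0.38, -0.31 and -0.19, with limma adjusted p of 0.98, 0.235, 0.382 and 0.573. Between treated mice alone, Endog at weeks 7 and 9 was lower by 0.37 than at weeks 1 to 3 (SE 0.088, limma adjusted p = 0.00197), a comparison in which 9.41% of probe sets were called lower. The ranges overlapped, since only 2 of the 10 late kidneys lay below the lowest early value of 5.33. By mean level the order was untreated, week 1, week 5, week 3, week 2, week 9 and week 7, and neighbours overlapped at each step.

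Dnase1l3 showed no called change at any week. Its brighter probe set was dim, with a mean of 3.15 that lay above 36.9% of probe sets, and its other probe set was dimmer still at 1.71, above 8.98%. Changes at such signal can be compressed. The untreated kidneys had Dnase1l3 at 3.91, 2.90 and 3.11 on the log2 scale. At week 7 it was 3.22, 2.15, 3.43, 3.89 and 3.53, and at week 9 it was 3.66, 3.67, 3.01, 3.23 and 3.22. No late kidney was above the highest untreated kidney, and 1 was below the lowest.

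The difference of Dnase1l3 from untreated was -0.06 at week 7, with a 95% interval from -0.60 to 0.48, and 0.05 at week 9, with an interval from -0.49 to 0.59. An average change beyond 1.52-fold at either week thus lay outside the intervals for this probe set. The lowest group was week 2, with values from 2.36 to 3.14 and a difference of -0.56 (SE 0.26, limma adjusted p = 0.309). Weeks 7 and 9 lay 0.34 above weeks 1 to 3 (SE 0.15, limma adjusted p = 0.103), where 11.2% of probe sets were called higher, and 5 of 10 late kidneys exceeded all 15 early ones. Without week 7 replicate 2, the lowest kidney of all, this difference was 0.48 (limma adjusted p = 0.00546). The dimmer probe set differed by 0.03 (limma adjusted p = 0.881) between the same weeks, in which it ranged from 1.34 to 2.48 late, and did not repeat the difference. By mean level the order was week 9, week 5, untreated, week 7, week 3, week 1 and week 2, and neighbours overlapped at each step.

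Dnase2a, the lysosomal nuclease, passed the test at no week. The untreated kidneys had Dnase2a at 6.95, 7.19 and 6.71 on the log2 scale. At week 7 it was 7.06, 6.67, 7.50, 6.87 and 6.61, and at week 9 it was 7.15, 7.42, 7.05, 7.27 and 6.83. The late kidneys lay on both sides of the untreated ones, with 2 below the lowest and 3 above the highest. The 95% interval of the difference from untreated ran from -0.38 to 0.37 at week 7 and from -0.18 to 0.57 at week 9. The largest difference was 0.33 at week 3 (SE 0.18, limma adjusted p = 0.439), where replicate 3 had the highest value of all kidneys, 7.82. Higher calls made up 9.85% of probe sets at week 7 and 6.41% at week 9, and none of the 4 genes was among them. The order of group means ran from week 3 through week 5, week 9, week 2, week 1 and untreated to week 7, with overlap at each step. The Dnase2a probe set is of the type whose probes can match other transcripts.

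**Figure D2:**
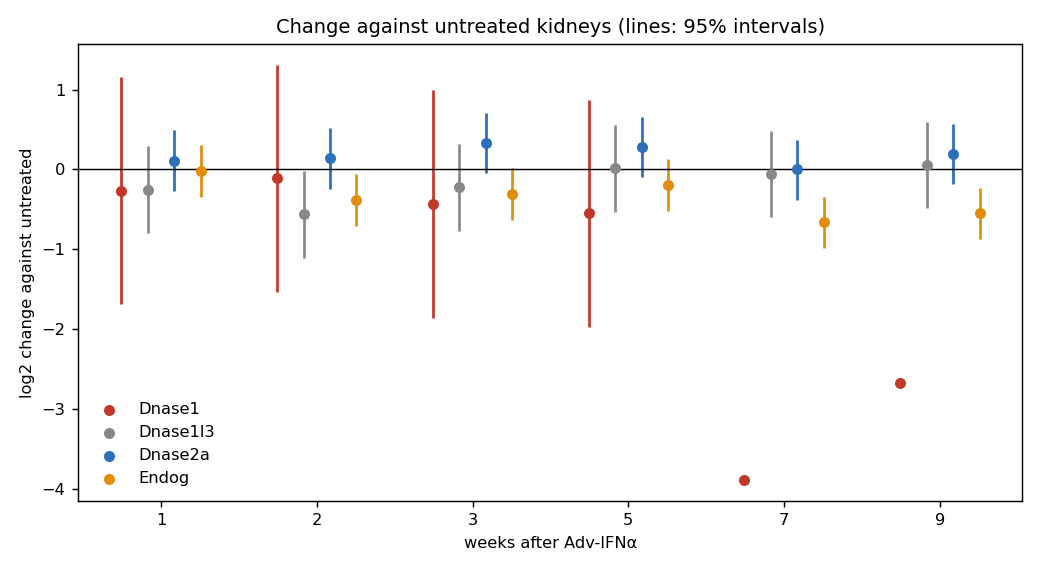
Log2 change of each gene against the 3 untreated kidneys (points) with its 95% interval from limma (vertical lines), by week after Adv-IFNα on the horizontal axis; Dnase1 at weeks 7 and 9 (-3.89 and -2.67) has points alone, since these values are a description. The intervals of Endog lie below 0 at weeks 7 and 9 (-0.66 and -0.55), while those of Dnase1l3 and Dnase2a include 0 at those weeks.

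The late kidneys differed among themselves, and Dnase1 can be set beside 2 transcripts of tubular injury in each. Lcn2 encodes the iron-binding protein NGAL, and Havcr1 encodes KIM-1, and both are made by damaged tubules. In untreated kidneys Lcn2 ran from 3.75 to 4.37 and Havcr1 from 6.64 to 7.33 on the log2 scale. At week 7, replicates 1, 2, 3 and 5 had Lcn2 at 9.55, 9.93, 8.53 and 9.21 and Havcr1 at 10.06, 10.59, 9.45 and 10.83, and all of them had Dnase1 at 7.76 or less. Week 7 replicate 4, with Dnase1 at 11.24, had Lcn2 at 4.30 and Havcr1 at 7.54.

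Week 9 held the same kinds of kidney. Replicates 1, 4 and 5 had Lcn2 at 8.84, 9.94 and 8.55 and Havcr1 at 10.53, 9.94 and 10.29, with Dnase1 at 8.39, 7.70 and 7.31. Replicates 2 and 3 had Lcn2 at 4.82 and 5.90 and Havcr1 at 8.46 and 8.43, with Dnase1 at 11.39 and 10.29. The 3 late kidneys with the most Dnase1 were thus the 3 with the least Lcn2 and the least Havcr1. The median log2 level of 20 proximal tubule genes was 10.10, 9.98 and 9.87 in those 3 kidneys and between 8.54 and 9.34 in the other 7.

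The proximal tubule genes were lower late. The size of their changes is not set against that of Dnase1, which was chosen for its late fall. Of 20 measured, 13 fell and none rose at week 7, with a median change of -0.69 against 0.03 over all genes, of which 6.83% were called lower. The largest falls among them were those of G6pc, which encodes glucose-6-phosphatase (-1.55), the organic anion transporter genes Slc22a7 (-1.45) and Slc22a8 (-1.41), and Miox, for myo-inositol oxygenase (-1.32). At week 9, 4 of 20 fell, when 7.57% of all genes were called lower. Their summed level, on the log2 scale of the sum, ran from 14.94 to 14.99 in untreated kidneys, from 14.23 to 15.04 at week 7 and from 14.34 to 15.07 at week 9. Macrophage and monocyte genes moved the other way, with 12 of 15 higher at week 7, when 13.2% of all genes were called higher. Their summed level was 8.57 to 8.65 in untreated kidneys, 9.49 to 10.87 at week 7 and 9.54 to 10.96 at week 9. The part of these cell types in the levels of the nucleases was not tested.

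**Figure D3:**
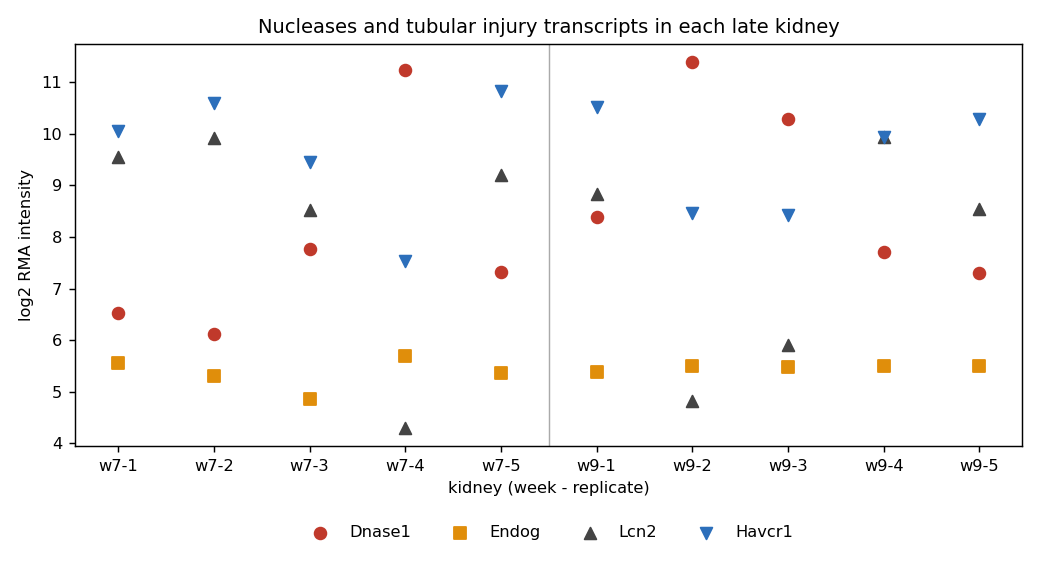
Log2 RMA intensity of Dnase1, Endog, Lcn2 and Havcr1 in each of the 10 late kidneys, named by week and replicate on the horizontal axis; a grey line parts the weeks, and heights of different genes are not comparable. Where Dnase1 is at 10.29 or above (w7-4, w9-2, w9-3), Lcn2 is at 5.90 or below, while Endog stays between 4.86 and 5.70 in all 10.

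Genes with a pattern over kidneys most like that of each nuclease were found by Pearson r over the 33 arrays among 10736 genes with signal at or above the median, or 10737 for Dnase1l3, whose own probe set lay below it. For Dnase1 these were Cndp1, which encodes carnosinase (r = 0.97), Dio1, the deiodinase that activates thyroid hormone (0.969), Bhmt, a homocysteine methyltransferase (0.966), Wfdc15b (0.966) and D630029K05Rik (0.962). Bhmt changed by -4.11 at week 7 and Cndp1 by -2.34 on the log2 scale. The most opposed were Golm1 (r = -0.975), Lcn2 (-0.97) and S100a11 (-0.96). These values describe likeness and carry no test, and the late kidneys weigh heavily in them. Over the 23 kidneys outside weeks 7 and 9, r with Dnase1 was 0.669 for Cndp1, 0.0852 for Dio1, 0.66 for Bhmt, -0.811 for Golm1 and -0.336 for Lcn2.

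The other 3 nucleases had less close neighbours. Endog was most like Rmdn3 (r = 0.803), Mrps21, a mitochondrial ribosomal protein gene (0.767), Pgam2, a phosphoglycerate mutase gene (0.767), S100g, for calbindin-D9k (0.761), and Fabp3, a fatty acid binding protein gene (0.761). For Dnase1l3 the nearest were Prex1 (0.704), Afap1 (0.594), P2rx7 (0.563), Cxcr3, a chemokine receptor of activated T cells (0.562), and Dkk2 (0.557). For Dnase2a they were Oxld1 (0.597), Insrr (0.593), Atp5h (0.59), Lzts2 (0.586) and Dcc (0.579). All were picked as the highest r among many genes, so the weaker ones can arise by chance, and none carries a test. Among the 4 themselves, Dnase1 and Endog had r = 0.593 over 33 kidneys and 0.00425 over the 23 outside weeks 7 and 9.

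Other DNA nucleases were also looked up. The list also holds genes whose main role is not to cut DNA, among them Samhd1 and Dffa. Their changes are not set against the fall of Dnase1, which was chosen from a group of nucleases after that fall was known. Of 20 listed, 18 were measured, and Dnase1l1 and Dnase1l2 were not analysed here. At week 7, 5 of the 18 rose and 1 fell, with a median change of 0.21, against 13.2% of all genes called higher, 6.83% called lower and a median of 0.03. Samhd1, an interferon-induced enzyme that breaks down deoxynucleotides, rose by 1.33 (SE 0.23, limma adjusted p = 0.000166). Fen1, the flap endonuclease of replication, rose by 1.32, Apex1, the main abasic site endonuclease of base excision repair, by 1.17, Pld4, a lysosomal exonuclease of phagocytes, by 0.91, and Trex1, the exonuclease that clears cytosolic DNA, by 0.49. Trex2, an exonuclease known from skin, fell by 0.47 (limma adjusted p = 0.0409), but its signal was dim at 3.21 in untreated kidneys.

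Samhd1 was already higher at week 1. It was 6.69, 6.09 and 6.67 in untreated kidneys and 8.02, 7.90, 8.05, 8.10 and 7.93 at week 1, with no overlap, a rise of 1.52 (SE 0.23, limma adjusted p = 8.8e-05). It was the only 1 of the 18 called at weeks 1, 2 and 3, and its rise lay between 1.17 and 1.52 at every week. At weeks 1, 2 and 3, 1.4%, 1.27% and 1.51% of all genes were called higher and 0.316%, 0.398% and 0.269% lower. Fen1 ran from 5.54 to 5.61 in untreated kidneys and was 7.13, 7.31, 6.52, 6.22 and 7.28 at week 7. Its week 7 low, 6.22, was in replicate 4, the kidney with Dnase1 at 11.24. At week 5 Samhd1 and Fen1 (0.83) were higher and Trex2 lower (-0.77), against 2.75% of all genes higher and 0.79% lower. At week 9 Samhd1 (1.32), Pld4 (1.09) and Fen1 (0.95) were higher and none was lower, against 9.05% of all genes higher and 7.57% lower. Of those called neither at week 7 nor at week 9, the caspase-activated nuclease Dffb changed by 0.17 and -0.03, the lysosomal Pld3 by 0.37 and 0.17, and the mitochondrial Exog, a relative of Endog, by 0.39 and 0.12.

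**Figure D4:**
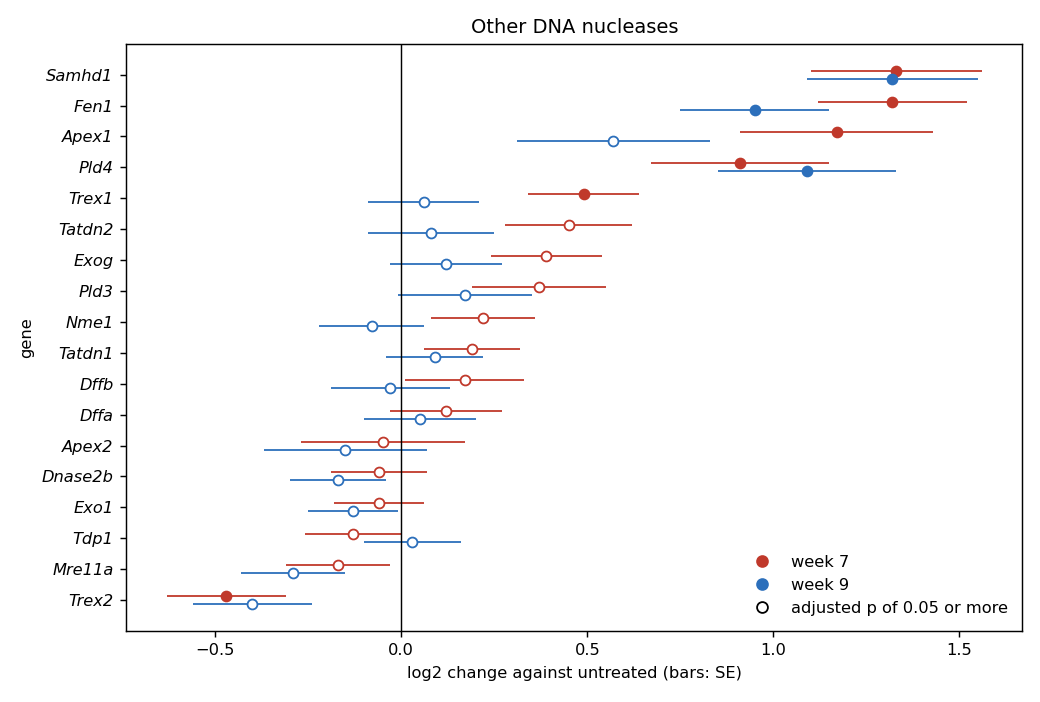
Log2 change against untreated kidneys of the 18 genes measured from the list of other DNA nucleases, at week 7 (red) and week 9 (blue). Bars show 1 SE to each side, and filled points had a limma adjusted p below 0.05. Samhd1, Fen1 and Pld4 are filled at both weeks, and the lowest value is that of Trex2 at week 7, -0.47.

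Genes grouped by what they share with each nuclease moved as follows at week 7, when 13.2% of all genes were called higher and 6.83% lower, with a median change of 0.03. Among actin and its binding partners, which include the inhibitor of DNase I, 5 of 8 rose and none fell, with a median change of 0.34. They included Tmsb10 (2.09) and Tmsb4x (0.60), which encode thymosins that hold actin as monomers, Pfn1, for profilin (0.51), and Actg1, for gamma-actin (0.36). Among genes for clearing dead cells, 10 of 23 rose and none fell, with a median of 0.41, and these included the complement genes C1qa (1.88) and C1qc (1.62) and the integrin gene Itgb2 (1.85). Of 14 genes measured from a list for DNA sensing, 9 rose and none fell, with a median of 0.59. The list also holds genes that do not sense DNA themselves, among them Tlr7 (1.37) and Irf7. Aim2, also listed, was not analysed here. Irf7, a transcription factor induced by interferon, rose by 3.37, and Ifi204 by 2.64.

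Genes that share a compartment or role with Dnase2a and Endog are set against the same week 7 shares of all genes, 13.2% higher and 6.83% lower. Of 23 lysosomal genes 14 rose and none fell at week 7, with a median of 0.51, whereas Dnase2a did not pass the test. Ctss (2.08), Ctsc (1.26) and Ctsd (1.18) encode cathepsins, and Cd68 (1.90) is also a macrophage marker. Of 17 mitochondrial genes 7 fell and none rose, with a median of -0.27, beside the fall of Endog by 0.66. Those with the largest falls were Sdhb (-0.89), Ogdh (-0.79), Sdha (-0.67) and Idh3a (-0.67), enzymes of the citric acid cycle. Of 16 genes of apoptosis 4 rose, including Apaf1 (1.09), and 1 fell, Cideb (-0.47), with a median of 0.02. Of 13 neutrophil trap and granule genes 2 rose, Lcn2 (4.34) and Cybb (1.47), and 1 fell, Prtn3 (-0.61), with a median of 0.07, counts near those shares.

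Markers of other cell types that could carry nuclease transcripts were counted at week 7 in the same way, beside the 13.2% of all genes called higher and the 6.83% called lower. All 11 tubular injury genes measured rose, with a median of 1.80, and Cd44 (3.16) was among them. Of 8 dendritic cell genes 3 rose, and their summed level went from 7.60 to 7.73 in untreated kidneys to 7.95 to 8.39. Of 8 B and plasma cell genes 3 rose, including Jchain (2.53), and of 10 T and NK cell genes 2 rose. Of 5 podocyte genes 1 rose, Ptpro, and 1 fell, Nphs1. The counts of the T and NK cell and podocyte lists differ by about 1 gene from what those shares give, so they are no result about these lists. Of 10 endothelial genes 3 fell, and of 20 genes of the loop of Henle and distal nephron 8 fell, with Pvalb, for the calcium-binding protein parvalbumin, at -3.06, and 1 rose, Cldn16 (0.84). Dnase1l3, made mainly by macrophages and dendritic cells, showed no called change beside these.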

How the data were processed

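Total RNA of 33 kidneys was labelled with NuGEN Ovation reagents and hybridised to HT MG-430 PM arrays, 1 colour and 1 mouse per array. The log2 values deposited by the authors were made with RMA, and Partek is also named in the submitters' processing notes, both without versions. The base of the logarithm was taken from the range of the values, 0.585 to 13.9. RMA makes the arrays equal in distribution, so a shift of all genes would not be seen. The table held 45141 probe sets, 104 of them controls, and 45037 were tested. The annotation paired 28898 with 1 symbol and 551 with several, and 15588 were unnamed.

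Groups came from sample titles. limma 3.58.1 in R 4.3.3 fitted 7 group means to all arrays (26 residual degrees of freedom), with Benjamini-Hochberg adjustment over all probe sets. The number of arrays limits the precision. Permutation tests used SciPy 1.17.1, exact or with 100000 resamples where a group had 10 or more. The fit was tested on simulated data with 1 spread per probe set at all weeks. This did not cover a spread that differs between weeks, as that of Dnase1 did.

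The members, the 17 gene lists and the tests were chosen with earlier results of these data known. Named were the 4 members, all other DNA nucleases, up to 4 genes per further list by size of change at week 7 among those with adjusted p below 0.05, the 5 genes most like each member and the 3 most opposed to Dnase1, and Lcn2 and Havcr1. The 6 kidney markers, Cideb and Cldn16 were named after their values were seen. A list gene stood at its brightest probe set, and 239 of 273 were measured. Replicate numbers were not treated as pairs in the main fit. Between arrays of different groups, as deviations from group means, the mean correlation was -0.00329 for same numbers and 0.000914 for different numbers. Such means cannot show that no kidneys were paired.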

Additional observations from a re-analysis of the deposited data

Results flagged for a closer look

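In 3 of the 24 groups of 5 kidneys examined, 1 kidney lay far from the other 4 relative to the range of its group. Chance gives this in about 1 group in 20. The flagged groups were Dnase1 at week 2, where replicate 3 had 11.34 on the log2 scale, Dnase2a at week 3, where replicate 3 had 7.82, and Endog at week 9, where replicate 1 had 5.39. The flag does not weigh the size of a gap on the log2 scale. The SD of Endog at week 9 was 0.044, while Dnase1 at week 7, with 11.24 in replicate 4, was not flagged. The difference of Endog from untreated was not the same late as early, by the limma contrast of weeks 7 and 9 minus weeks 1 to 3, which was -0.37 with an adjusted p of 0.00197.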

How the results depend on the processing

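Leaving aside the late values of Dnase1, which carry no test, 505 recomputed values of the 4 genes kept their side of the threshold, and 8 crossed it. Among those that kept it, 31 differences of Dnase1l3, Dnase2a or Endog that were called in neither setting took the other sign. With only the groups compared in the fit, the week 7 difference of Endog was -0.66 (limma adjusted p = 0.0754), not past the threshold, and the week 9 value of Dnase1 -2.67. With the beta-actin covariate, Endog was -0.53 at week 7 and -0.41 at week 9, not called. By the permutation test, unadjusted, Dnase1 at week 3 (-0.43) and Dnase1l3 late minus early (0.34, p = 0.033) passed. With array weights the latter was 0.38 (limma adjusted p = 0.0451). Leaving out 1 array gave Dnase1 week 9 minus week 7 from 0.63 to 2.08, the highest without week 7 replicate 4, Dnase1l3 late minus early from 0.26 to 0.48, and Endog at week 9 from -0.66 to -0.41. Dnase1 at week 7 ran from -4.75 to -3.47. With the replicate number as a block, Dnase1 at week 7 was -3.92 and Endog -0.72, and no call of Endog, Dnase1l3 or Dnase2a changed.

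Counts of probe sets called moved by over 1.5 times in 42 recounts and by less in 97. Over the other settings and single arrays left out, they ran from 239 to 1422 at week 1 (main 643), 194 to 1371 at week 2 (597), 275 to 1053 at week 3 (620), 480 to 2047 at week 5 (1332), 2269 to 8334 at week 7 (7057), 2053 to 6993 at week 9 (6278), and 0 to 316 between weeks 9 and 7 (31). The filter on dim probe sets removed Dnase1l3, which then had no value. Only 3 untreated arrays stand behind every difference from untreated, the lack of an empty-virus group leaves the virus unseparated, and dim signal limits Dnase1l3.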
